A study of Mus musculus with 26 samples.

Results

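The Wnt genes described here are 42 named members of the mouse Wnt signalling pathway: 19 ligands, 10 Frizzled receptors, 2 LRP co-receptors, 6 secreted antagonists, Axin2 and 4 TCF-LEF transcription factors. They were chosen by name, and all 42 were found in the gene annotation, among 21951 protein-coding genes. The cells are E14 mouse embryonic stem cells, an established line grown without feeder cells. After 48 h of culture, the medium was replaced for the last 4 h by medium with leukemia inhibitory factor (LIF), which keeps the cells pluripotent (mESC+), or by medium without LIF and with 1 µM retinoic acid (RA), which starts differentiation (mESC-). RNA was sequenced from 3 libraries per state, open chromatin was measured by ATAC-seq in 1 library per state, and enhancer probabilities were derived from ChIP-seq of 3 histone modifications with 1 library each per state.

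Wnt ligands are secreted lipid-modified proteins that bind Frizzled receptors and the co-receptors Lrp5 or Lrp6. Binding keeps β-catenin from being degraded, and β-catenin then acts on target genes through the DNA-bound TCF-LEF factors. Axin2 is a scaffold of the complex that marks β-catenin for degradation and is itself a widely used target gene of the pathway. In embryonic stem cells, Wnt signals favour self-renewal and Tcf7l1 represses genes of the pluripotency network. RA is a ligand of nuclear receptors, which bind repeated short DNA elements as RARA::RXRA dimers.

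The RNA-seq table of the study holds 2189 genes rather than all genes, and a member with a row in it is called listed here. Of the 42 members, 14 were listed (33.3%, exact 95% interval 19.6 to 49.5), beside 9.04% of all protein-coding genes. The members were chosen with earlier results of these data known, so this share is a description. The rule that chose the rows is not given in the sources used here, so being listed is the authors' selection and not the outcome of a test run for this report. For each listed gene the table gives the authors' mean normalized read count over all 6 libraries, which has no replicate spread. To compare genes, this mean was divided by the summed exon length in kb. The mean says nothing about a difference between mESC+ and mESC-, and in bulk RNA fewer expressing cells cannot be told apart from less RNA per cell.

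Among the ligands, 4 of 19 were listed, and all 4 had low or moderate means per kb. Wnt8a was the highest, with 98.5 normalized counts per kb of exon. Wnt7b had 51.6, Wnt3a had 16.7 and Wnt5a had 11.5. Wnt3a and Wnt8a are ligands used in early embryonic patterning, and Wnt5a mostly signals without β-catenin. The authors' mean of Wnt3a, 46.2 normalized counts, stood at percentile 10.6 of all listed genes, so few reads lie behind its row.

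Frizzled receptors made up the largest listed class by count, with 5 of 10. Fzd7, a receptor with a known role in stem cell self-renewal, had the highest mean per kb of all listed members, 1034. Fzd5 followed within the class with 506 and Fzd10 with 164. The other two were lower, Fzd4 at 35.6 and Fzd1 at 14.4 normalized counts per kb. The listed receptors thus ran over nearly the whole range of the 14 members, while neither Lrp5 nor Lrp6 was listed.

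Among the antagonists, 2 of 6 were listed. Sfrp1, which binds Wnt ligands outside the cell, had 418 normalized counts per kb and Dkk3, a divergent Dickkopf protein, had 14.8. Dkk1 and Dkk2, which bind the LRP co-receptors, had no row. Axin2 was listed with 79.7 normalized counts per kb. Of the TCF-LEF factors, Tcf7l1 had 827 and Lef1 had 75.3, and Tcf7 and Tcf7l2 had no row.

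**Figure D1:**
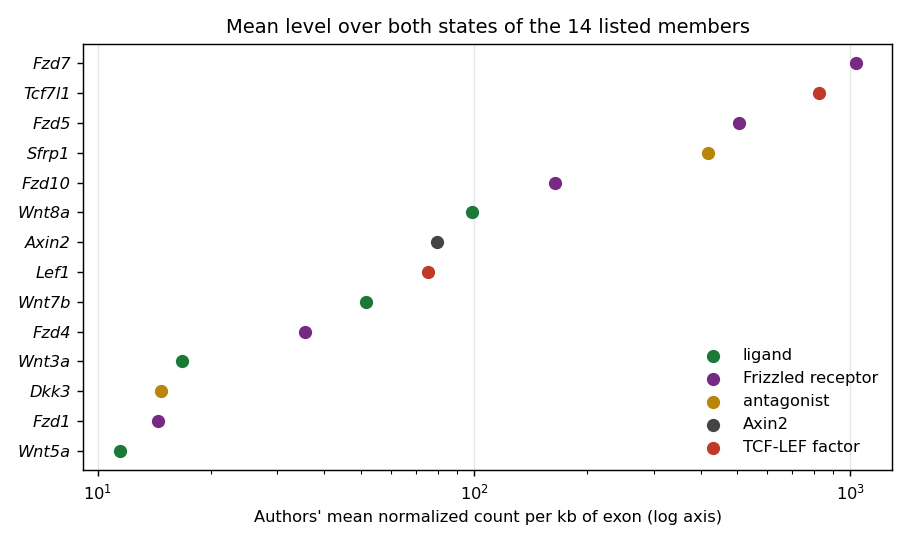
Authors' mean normalized count per kb of exon (x axis, log scale) of the 14 listed members (y axis), coloured by class. Each point is a mean over all 6 RNA-seq libraries of both states and has no error bar, since no values per library were used. Fzd7 (1034) and Tcf7l1 (827) are at the top, and Fzd1 (14.4) and Wnt5a (11.5) at the bottom.

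The enhancer probabilities were then searched for regions that the authors had reported as changing between the states. A dynamic region is a stretch of the genome whose enhancer probability, a fraction between 0 and 1 computed from the histone modifications, was found to differ. Of 327 such regions, 141 were higher in mESC- and 186 higher in mESC+. Only 2 of them had their nearest edge within 100 kb of the start of a listed member, Wnt3a and Tcf7l1, and both were higher in mESC-. As the regions were selected for this difference, their probabilities are a description. Counting genes, 3 of the 42 members had a region within 100 kb, beside 3.79% of protein-coding genes and 9.88% of listed protein-coding genes. The third member is Wnt9a, which has no row in the RNA-seq table and shares the region of Wnt3a, since both genes start 16.2 kb apart and point away from each other.

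The region at Wnt3a lay at chr11:59281401-59283100 (GRCm38), in an intron of Wnt3a. Its centre was 8502 bp downstream of the Wnt3a start. Its enhancer probability, 0.0465 in mESC+, was 0.901 in mESC-, close to the median of 0.911 in mESC- over the 141 regions. Both ATAC-seq lists held a peak inside it. The fold enrichment of this peak over background was 11.6 in mESC+ (percentile 84.2 of the list) and 11.2 in mESC- (percentile 84.1), so its rank in the 2 lists was nearly equal while the probabilities were far apart. Because each library has its own scale of fold enrichment, peaks are compared by their percentile within their own list.

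The region at Tcf7l1 lay at chr6:72807501-72811500, where no gene is annotated, and its centre was at -20246 bp from the Tcf7l1 start (negative distances are upstream). The next protein-coding start, of Kcmf1, was 90479 bp from the centre. Here the probability of an enhancer was 0.0498 in mESC+ and 0.912 in mESC-. The main peak inside it had a fold enrichment of 12.1 in mESC+ (percentile 85.9) and 8.88 in mESC- (percentile 71.2). A weaker peak with a fold enrichment of 4.24 (percentile 11.2) was found in the mESC+ list only. At Tcf7l1 the peak thus ranked lower in the state with the higher probability.

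The sequences below are shown because they are the open chromatin of these 2 regions in mESC-. Each is the reference sequence of 300 bp centred on the mESC- summit, the point of highest signal, on the plus strand. Capitals mark a match to the RARA::RXRA direct repeat, which was searched on both strands, with its copies 5 or 2 bases apart and up to 1 mismatch allowed.
Wnt3a region, chr11:59282066-59282365: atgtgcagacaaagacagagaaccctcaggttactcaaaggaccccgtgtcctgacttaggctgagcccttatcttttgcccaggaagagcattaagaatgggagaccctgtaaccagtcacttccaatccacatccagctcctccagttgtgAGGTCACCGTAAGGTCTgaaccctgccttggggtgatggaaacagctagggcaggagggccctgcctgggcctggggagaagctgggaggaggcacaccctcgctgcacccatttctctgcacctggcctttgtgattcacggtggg
Tcf7l1 region, chr6:72808426-72808725: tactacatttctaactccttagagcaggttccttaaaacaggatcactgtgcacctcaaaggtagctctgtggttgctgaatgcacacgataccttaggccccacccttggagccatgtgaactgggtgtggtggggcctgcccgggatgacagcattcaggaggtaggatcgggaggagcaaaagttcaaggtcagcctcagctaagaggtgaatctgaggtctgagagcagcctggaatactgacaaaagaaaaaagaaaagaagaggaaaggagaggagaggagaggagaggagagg
In the Wnt3a window the repeat spans bases 154 to 170 and starts 3 bp after the summit. It has 1 mismatch and lies inside the peak of both lists. The Tcf7l1 window holds no match at these spacings, and other spacings were not searched. Over the whole mESC- list, 6.36% of such windows hold a match, and over the mESC+ list 5.56%.

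Beyond the windows around the summits, the Wnt3a region held a further repeat with 1 mismatch at chr11:59281489-59281505, on the minus strand (TGGTCACCTACGGTTCA). The Tcf7l1 region held a repeat with 1 mismatch at chr6:72811340-72811356 (AGTTCTTCAAAAGTTCA), outside its peaks. Such repeats are common in the dynamic regions. Of the 141 regions higher in mESC-, 61.0% held at least 1, beside 43.7% of all 327 regions. A TCF-LEF element, searched as CTTTGAT on both strands with no mismatch, was in neither region. It was in 21.3% of the 141, beside 30.3% of all 327. A match is a description of the letters and does not show binding.

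**Figure D2:**
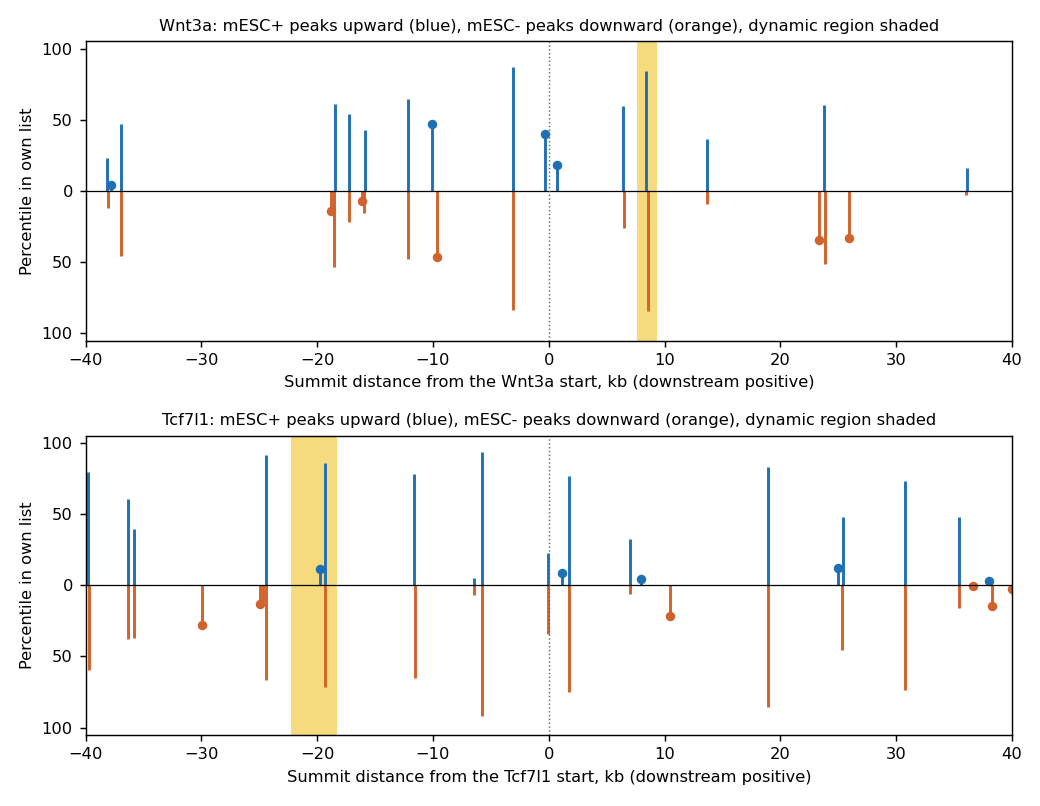
ATAC-seq peaks within 40 kb of the start of Wnt3a (top) and Tcf7l1 (bottom), by distance of the summit from the start in kb (x axis, downstream positive). Line length is the percentile of the peak in its own list (y axis), upward for mESC+ and downward for mESC-, filled circles mark peaks of 1 list only, and the shaded band is the dynamic region. Inside the band, the Wnt3a peaks stand at 84.2 and 84.1, and the main Tcf7l1 peaks at 85.9 and 71.2. The Wnt3a start has peaks in mESC+ only.

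Promoters were compared next, to see whether the start of each member was open in both states. A promoter peak was an ATAC-seq peak that overlapped the 1 kb to either side of the gene start. In mESC+, 37 of the 42 members had a promoter peak (88.1%, exact 95% interval 74.4 to 96.0), beside 67.7% of protein-coding genes. In mESC-, 35 had one (83.3%, 68.6 to 93.0), beside 66.4%. Of the 14 listed members, 13 and 12 had a promoter peak (92.9% and 85.7%), near the 89.6% and 88.0% of listed protein-coding genes. Of the 28 members without a row, 24 and 23 had one, beside 65.5% and 64.2% of protein-coding genes without a row. With 1 library per state, these differences have no replicate check, and when the 50000 strongest peaks of each list were kept, 16 members had a promoter peak in each state.

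Every one of the 10 Frizzled genes, the 6 antagonists, Axin2 and the 4 TCF-LEF genes had a promoter peak in both lists. The exceptions were ligands and Lrp5. No promoter peak was found in either list for Wnt5a, Wnt8b, Wnt10a, Wnt10b and Wnt11. Wnt5a is the only listed member among them. Its nearest summits lay 1301 bp downstream of the start in mESC+ and 1096 bp downstream in mESC-, and both peaks were weak (percentiles 2.36 and 4.38).

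Wnt3a and Lrp5 had a promoter peak in the mESC+ list only. At Wnt3a the stronger of 2 such peaks had its summit at -348 bp and a fold enrichment of 5.80 (percentile 39.9). In mESC- the nearest summit was at -3092 bp, under a peak of percentile 83.7 that was also present in mESC+ (percentile 87.3). The Lrp5 peak had a fold enrichment of 4.72 (percentile 20.2) in mESC+. In mESC- the summit nearest the Lrp5 start was at -1461 bp, under a peak of percentile 65.1 that did not reach the promoter window. Both mESC+ promoter peaks were below the middle of their list. Over the whole lists, peaks without a partner are also many. Of all mESC+ peaks 26.1%, and of all mESC- peaks 14.1%, were not overlapped by a peak of the other list. The mESC+ list is the longer, with 163484 peaks against 141465.

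The window of 300 bp at the Wnt3a promoter, centred on the mESC+ summit, is shown because it is the promoter of a listed member whose peak was called in 1 state only. It lies upstream of the gene and holds no match to either motif, so nothing is in capitals.
Wnt3a promoter, chr11:59290950-59291249: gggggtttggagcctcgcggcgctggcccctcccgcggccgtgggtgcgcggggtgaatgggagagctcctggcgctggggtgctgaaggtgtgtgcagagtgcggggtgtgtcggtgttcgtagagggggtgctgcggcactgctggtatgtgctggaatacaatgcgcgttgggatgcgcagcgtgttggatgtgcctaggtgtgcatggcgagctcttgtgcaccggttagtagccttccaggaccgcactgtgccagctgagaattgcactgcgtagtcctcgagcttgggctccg

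Among the listed ligands with a peak in both lists, Wnt8a had the stronger promoter peak, with fold enrichments of 13.7 in mESC+ and 13.4 in mESC- (percentiles 90.9 and 91.9). Wnt7b had 8.60 and 8.01 (percentiles 68.5 and 65.1). Both ligand promoters thus kept their rank to within a few percentiles. The unlisted ligands ran from Wnt1, at percentiles 3.25 and 11.6, up to Wnt16, at 93.6 and 89.8, and Wnt9b, at 90.9 and 93.6. Wnt9a, the neighbour of Wnt3a, stood at 54.3 in mESC+ and 15.6 in mESC-, but these are different peaks, with summits 1036 bp downstream of the start in mESC+ and at -214 bp in mESC-. The strongest peaks of both lists likewise did not overlap at Wnt2, Wnt5b, Wnt7a and Dkk1, and overlapped at the other 30 members with a peak in both, the 12 listed ones included.

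Among the listed receptors, Fzd4 had the strongest promoter peak, with percentiles 81.9 in mESC+ and 86.3 in mESC-. Fzd7 stood at 73.8 and 72.6, and Fzd10 at 49.2 and 54.4. Fzd1 stood at 68.5 and 59.0, and Fzd5 at 47.3 and 32.7. Fzd5 had the largest fall in rank of the listed members. The order of the promoter peaks was not that of the RNA means per kb, in which Fzd7 and Fzd5 led.

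The 2 listed TCF-LEF genes had weak promoter peaks that ranked higher in mESC-. Tcf7l1 stood at percentile 22.3 in mESC+ and 33.9 in mESC-, and Lef1 at 8.31 and 17.0. Axin2 also ranked higher in mESC-, from 65.9 to 75.0. The unlisted factors ranked lower in mESC-, Tcf7 from 53.5 to 24.8 and Tcf7l2 from 76.7 to 69.0. For the antagonists, 5 of 6 ranked lower in mESC- by fold enrichment and 6 of 6 by the -log10 p of the peak, with Dkk1 compared between different peaks. Of all protein-coding genes with a peak in both lists, 45.7% and 41.6% ranked higher in mESC- by these measures. A lower rank was thus the commoner order in general. The peak nearest the Dkk1 start stood at 73.6 in mESC+ and 76.7 in mESC-. Among the 5 antagonists whose strongest peaks overlapped, 4 ranked lower by fold enrichment, with Dkk2 going from 91.2 to 75.2 and Sfrp2 from 68.5 to 51.9. Sfrp1 was the exception by fold enrichment, with 73.1 and 74.9.

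Over all 35 members with a peak in both lists, 16 ranked higher in mESC-, and of the 30 with overlapping peaks, 15 did. Over all protein-coding genes with a peak in both, 45.7% did, and the share of the 35 members was the same as this background. Of the 12 listed members, 7 ranked higher in mESC- by fold enrichment, beside 41.3% of listed protein-coding genes. By -log10 p it was 6 of 12, beside 41.6% of protein-coding genes and 38% of the listed ones. The change in percentile over all such genes had a median of -0.49, and its 10th and 90th percentiles were -13.8 and 8.75. Of the 35 members, 7 fell below this range and 7 rose above it, where by definition 10% of all such genes lie on each side. Wnt2 and Wnt9a, below the range, and Wnt7a, above it, compare different peaks in the 2 lists. Among the listed members, Fzd5 fell below it, and Axin2 and Tcf7l1 rose above it. Against the wider range of listed protein-coding genes, -17.2 to 9.38, Tcf7l1 alone was outside, and by -log10 p over all genes Tcf7l1 and Lef1 were.

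**Figure D3:**
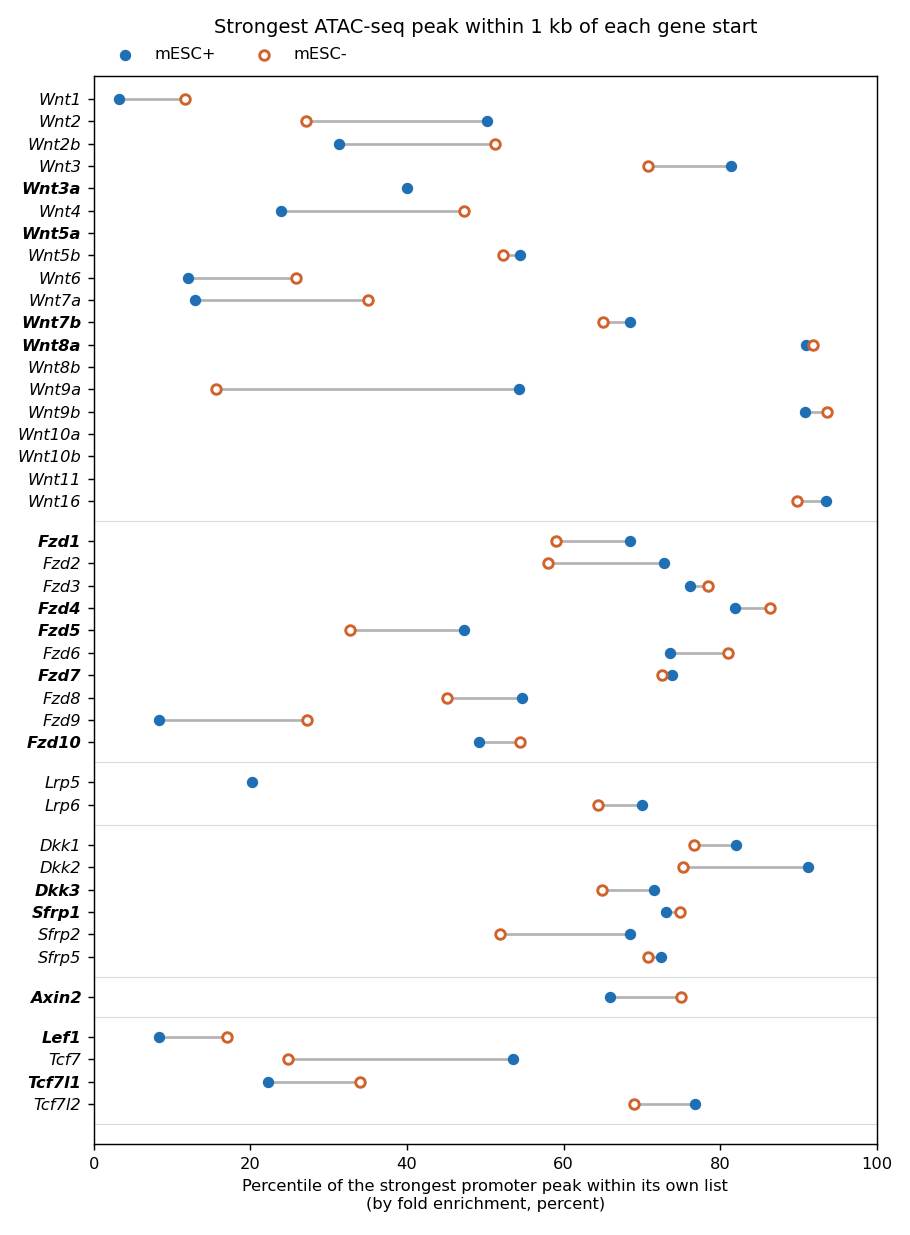
Percentile of the strongest promoter peak within its own ATAC-seq list, by fold enrichment (x axis), for the 42 members grouped by class (y axis, listed members in bold). Filled blue circles are mESC+, open orange circles mESC-, and a line joins both where both lists have a peak. Wnt3a (39.9) and Lrp5 (20.2) have a point in mESC+ only, and 5 ligands have none. Each point is 1 peak of 1 library, so there are no error bars.

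The surroundings of the 14 listed members were examined up to 100 kb from each start. These windows held 365 peaks of the mESC+ list and 317 of the mESC- list. Of the mESC+ peaks, 90 were in that list only (24.7%, exact 95% interval 20.3 to 29.4), and of the mESC- peaks, 47 (14.8%, 11.1 to 19.2). Both shares lie near those of the whole lists given above. The median window of a listed member held 24 mESC+ peaks and 19.5 mESC- peaks, beside 27 and 24 for all listed protein-coding genes. Peaks in 1 list only were mostly weak, with a median percentile of 15.9 in mESC+ and 14.3 in mESC-, beside 26.3 and 18.9 for such peaks of the whole lists.

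The windows differed in how far the 2 lists matched. Tcf7l1 had the most peaks, 49 in each list, with 11 and 10 in 1 list only. Fzd1 had the fewest, 4 in mESC+ and 3 in mESC-. Over the whole lists, 26.1% of mESC+ peaks and 14.1% of mESC- peaks were in 1 list only. A larger share in mESC+ was thus the general order. At Lef1, 15 of 39 mESC+ peaks were in that list only (38.5%), against 2 of 26 mESC- peaks (7.69%). At Axin2, it was 10 of 25 (40%) against 1 of 17 (5.88%), and at Sfrp1 7 of 17 (41.2%) against 4 of 14 (28.6%). Wnt8a had 9 of 32 (28.1%), near the share of the whole list, against 2 of 23 (8.70%). At Wnt3a the counts were nearly equal, with 7 of 38 and 8 of 39, and at Fzd7 3 of 31 and 4 of 33.

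The strongest peaks in 1 list only were in mESC+. At Axin2, the peak at chr11:108858060-108858248, in an intron of Cep112 and at -62205 bp, had a fold enrichment of 10.1 (percentile 77.5). At Lef1, an intergenic peak at -32069 bp had 8.98 (percentile 70.9). In the Wnt5a gene, an intronic peak 8215 bp downstream of the start had 7.98 (percentile 64.1). In mESC-, the strongest was 78049 bp downstream of the Fzd5 start, with a fold enrichment of 7.53 (percentile 60.2). The next was 58900 bp downstream of the Fzd7 start, in an exon of Gm973, with 7.11 (percentile 56.3).

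**Figure D4:**
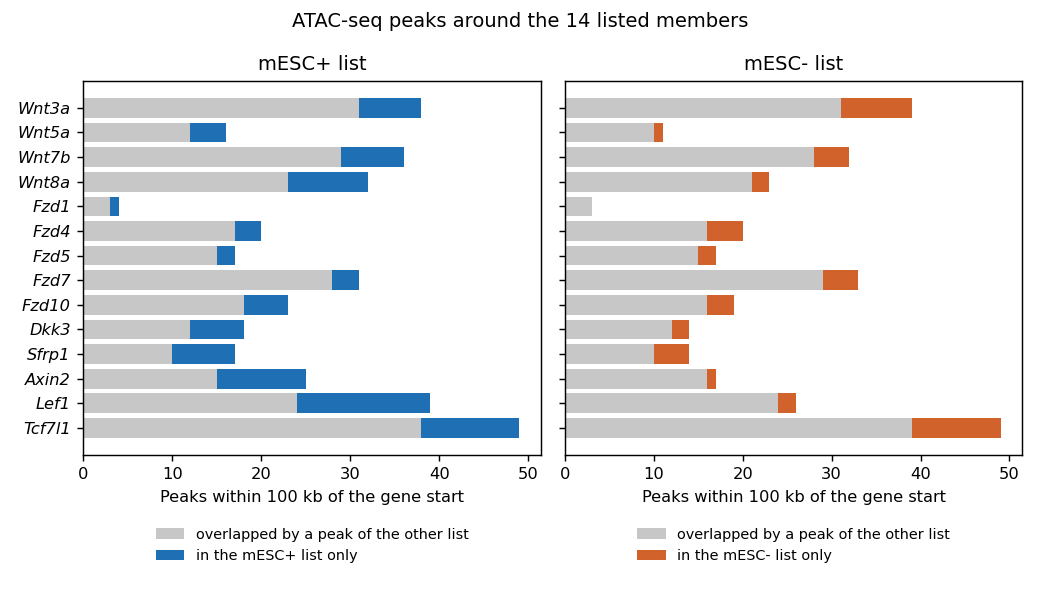
Number of ATAC-seq peaks within 100 kb of the start of each listed member (x axis), for the mESC+ list (left) and the mESC- list (right). Grey bars are peaks overlapped by at least 1 bp of a peak of the other list, and coloured bars are peaks in 1 list only. The shares in the mESC+ list only are highest at Sfrp1 (7 of 17), Axin2 (10 of 25) and Lef1 (15 of 39), beside 26.1% of the whole list. Tcf7l1 has the most peaks, 49 in each.

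Motifs were counted in the 300 bp around each summit in these windows. The TCF-LEF element was in 16 of 365 such windows in mESC+ (4.38%, exact 95% interval 2.53 to 7.02), beside 4.12% of the whole list. In mESC-, it was in 18 of 317 (5.68%, 3.40 to 8.83), beside 4.10%. The RARA::RXRA repeat was in 11 windows in mESC+ (3.01%, 1.51 to 5.33), beside 5.56%, and in 15 in mESC- (4.73%, 2.67 to 7.68), beside 6.36%. The share of the TCF-LEF element was thus near that of the whole list in both states. The share of the repeat was below that of the whole list in both, but this order depends on the window. In windows of 100 bp centred on the summit, the repeat was in 9 of 317 in mESC- (2.84%), beside 2.29% of the whole list. In mESC+ it was in 3 of 365 (0.822%), beside 1.81%. Peaks around the same gene share base composition, which the intervals leave out.

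The element was found at the Axin2 promoter, 78 bp downstream of the start, in the 5′ UTR and inside the promoter peak of both lists. This site and the Lef1 peak are printed because they carry the element at a target gene of the pathway and at a gene of a factor that binds it, in the latter case under a peak of the mESC- list only. They were chosen after their values were seen. Capitals mark CTTTGAT on the plus strand.
Axin2 site, chr11:108920416-108920445: agccggctgcgCTTTGATaaggtcctggca
Lef1 intronic peak, chr3:131137128-131137427: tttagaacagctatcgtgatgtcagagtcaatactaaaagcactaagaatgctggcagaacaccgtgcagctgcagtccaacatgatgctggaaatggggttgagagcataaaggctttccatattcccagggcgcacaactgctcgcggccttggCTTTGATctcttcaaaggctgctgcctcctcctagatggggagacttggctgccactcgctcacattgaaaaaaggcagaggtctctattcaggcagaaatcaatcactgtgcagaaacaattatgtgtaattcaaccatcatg
The Lef1 peak was in an intron, 26807 bp downstream of the start, where Gm42449, a transcript of uncertain status, is also annotated, with a fold enrichment of 5.37 (percentile 32.6), and was the stronger of the 2 Lef1 peaks in the mESC- list only. Lef1 had a further TCF-LEF element inside a peak of both lists, at -25562 bp from the start. Another at 61455 bp lay in the 300 bp around the summits but outside the called peaks. At Wnt8a the element was in the promoter peak of both lists, at -107 bp. Dkk3 had the element in 2 peaks of each list, and the peak at -21338 bp stood at percentile 81.4 in mESC+ and 90.1 in mESC-.

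RARA::RXRA repeats without a mismatch were rare everywhere, in 0.597% of summit windows of the whole mESC+ list and 0.941% of the whole mESC- list. Near listed members, 1 such repeat was counted in each list (0.274% and 0.315% of windows). In mESC+ it was at chr1:59394790-59394806 (AGGTCACATTTAGTTCA, minus strand), outside annotated genes and at -87634 bp from the Fzd7 start, under a peak of percentile 40.7. This site also lay inside a called mESC- peak (fold enrichment 4.58, percentile 15.0), but outside the 300 bp around its summit. In mESC- the repeat counted was at chr15:85519032-85519048 (GGGTCACTGGAGGGTCA, plus strand), likewise intergenic and 63441 bp downstream of the Wnt7b start. It lay under a peak in that list only with a fold enrichment of 4.00 (percentile 6.56). A repeat with 1 mismatch at chr7:89423358-89423374 (AGGTCACTCCCAGGTCC, minus strand), also intergenic and 19003 bp downstream of the Fzd4 start, lay under a peak of both lists that stood at percentile 62.6 in mESC+ and 74.7 in mESC-. Fzd7 had the most summit windows with a repeat, 4 in each list. These sites too were chosen after their values were seen.

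Promoter sequences from RefSeq (GRCm38), each of 250 bp before and 50 bp after a start, were matched to 30 of the 42 members by symbol, with 38 promoters. The TCF-LEF element was in 2 of them, of Wnt11 and Wnt5b, beside 3.73% of 32851 promoters. The RARA::RXRA repeat was in 0 of the 38, beside 3.95%.

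The other genes of the pathway are a list of 69 that regulate Wnt secretion, reception, the cytoplasmic complex and transcription. Of these 69, 16 were listed (23.2%, exact 95% interval 13.9 to 34.9), beside 9.04% of protein-coding genes. The 69 were chosen with earlier results of these data known, so this share is a description and not a test. Porcn, which attaches the lipid to Wnt ligands, had an authors' mean of 377 normalized counts per kb. Lgr4, a receptor for R-spondins that amplify Wnt signals, had 731. Ror2, a receptor for Wnt5a, had 102, and the antagonist Sfrp4 had 29.1. In the cytoplasm Csnk1e and Amer1 were listed, and in the nucleus 5 of 10 cofactors. Of these, Tle1, Tle2 and Tle4 belong to the Groucho family of corepressors, which TCF-LEF factors recruit. Tle5 is a related gene, and Bcl9l is a coactivator of β-catenin. Tle4 had the highest mean of the list, 1634 normalized counts per kb. The targets Ccnd1, Cdx1 and Sp5 and the planar polarity genes Celsr2 and Prickle2 were also listed. A promoter peak was found at 64 of the 69 in each state, beside 67.7% of protein-coding genes in mESC+ and 66.4% in mESC-. The 64 were not the same genes: Tle5 had a promoter peak in mESC+ only and Sp5 in mESC- only.

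The label of the cells was checked on marker genes by their promoter peaks. Of 7 genes of pluripotent stem cells, 6 had a promoter peak in each list, with Esrrb the exception at the start used here. Of 3 markers of primitive endoderm, 2 had one in each list. Of 3 trophoblast markers, 1 had one in mESC+ and 2 in mESC-. Of 4 fibroblast markers, 3 had one in each list, so an open promoter does not mark a cell type by itself. In the RNA-seq table, the pluripotency genes Zfp42, Sox2 and Klf4 had authors' means of 18458, 8169 and 2847 normalized counts. Gata6 of the endoderm had 54.1, Thy1 of fibroblasts 126 and Eomes of the trophoblast 309. These means were not divided by exon length. The part of other cell types in the results for the members was not tested.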

How the data were processed

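RNA-seq, ATAC-seq and ChIP-seq of E14 mESC+ and mESC- were used, with groups taken from the labels. For RNA-seq, the authors deposited a table of 2189 genes with a mean normalized count (signal) over all 6 libraries. Its fold changes, standard errors, test statistics and p-values are the authors' own comparison and were not used, nor were the p-values and cluster numbers of the dynamic regions, so no direction of expression is given. Reads were mapped to GRCm38. The labels name BWA, SAMtools, MACS2 and STAR 2.5.1b. ATAC-seq peaks had been called per library with MACS2, and every deposited peak carries its fold enrichment, a ratio over background, and its −log10 p and q values. The MACS2 settings are not given in the sources used here. The authors' enhancer probability is a fraction per region from CRUP. Read totals are unknown, so intervals cover counting error over genes or peaks only.

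IDs were matched to GENCODE annotation of GRCm38, and 2188 of 2189 were placed. The older symbol of Tle5 was taken from RefSeq. Promoter peaks overlapped 1 kb to either side of a gene start, windows reached 100 kb, and a peak was in 1 list only when no peak of the other list overlapped it by 1 bp. Intervals are exact Clopper-Pearson intervals. No test between states was possible with 1 ATAC-seq library each. All members were open to naming. Peaks named were the strongest promoter peak and, per member, the strongest in 1 list only. Other pathway genes with a row were named. Members and lists were chosen with earlier results of these data known. Scripts (Python 3.11.15, pandas 2.3.3, SciPy 1.17.1, pysam 0.24.0) were tested on simulated data.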

Additional observations from a re-analysis of the deposited data

How the results depend on the processing

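Of 41 alternative values, 23 were classed as the same as the reported value and 18 as moved. All are counts and pooled shares, which have no direction of their own. Values classed as the same could still differ clearly. For peaks with a −log10 q of at least 10, 27 members in mESC+ and 24 in mESC- had a promoter peak. The strictness of the peak lists moved the counts most. With the 50000 strongest peaks of each list, the members with a promoter peak fell from 37 in mESC+ and 35 in mESC- to 16 in each. The peaks within 100 kb of listed members became 95 in mESC+ and 93 in mESC-, and those in 1 list only 18 and 16. For peaks reaching a −log10 q of 10, the same counts were 156, 124, 46 and 15, and within 50 kb of the start they were 218, 191, 54 and 28. When shared peaks had to overlap by 50% of each, 133 were in the mESC+ list only in place of 90, which was classed as the same. In the mESC- list only there were 86 in place of 47, which was classed as moved. In a window of 100 bp centred on the summit, the pooled share of peaks with a TCF-LEF element was 1.32% in place of 4.99%. That of a RARA::RXRA repeat was 1.76% in place of 3.81%. Set beside the whole list, 2 orders turned in this window: the repeat in mESC- went from 4.73% against 6.36% to 2.84% against 2.29%, and the TCF-LEF element in mESC+ from 4.38% against 4.12% to 0.822% against 1.33%. Without a mismatch, the repeat's pooled share was 0.293%, beside 0.597% of the whole mESC+ list and 0.941% of the whole mESC- list. Counting only members whose strongest promoter peaks overlap between the lists, a choice made after the data were seen, left 7 listed members that ranked higher in mESC-. No paired analysis was possible because no values per RNA-seq library were used and ATAC-seq and ChIP-seq had 1 library per state. Leaving out replicates was not possible either. The depth of each library is unknown, and a longer peak list can by itself hold more peaks without a partner.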

Other observations

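The strongest peak around several listed members was far from its start and present in both lists. These peaks were looked up after the values were seen. Near Axin2 it lay about 91.6 kb downstream, with fold enrichments of 23.6 in mESC+ and 22.4 in mESC- (percentile 99.9 in each). Near Fzd5, an intergenic peak 82120 bp downstream in mESC+ had 21.2, and its mESC- counterpart had 20.6 (percentiles 99.5 and 99.7). Near Sfrp1, a peak at -50474 bp in mESC+ had 20.7, and in mESC- 17.5 (percentiles 99.4 and 98.3). Near Wnt5a, which has no promoter peak, a peak 23749 bp downstream in mESC+ had 16.8 and its counterpart 13.8 (percentiles 96.7 and 92.8). At Fzd1, the strongest peak in the window was the promoter peak itself.

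Other ligands also start close to each other: Wnt1 and Wnt10b 11.7 kb apart, Wnt6 and Wnt10a 19.6 kb and Wnt3 and Wnt9b 24.3 kb. In the pairs Wnt1 with Wnt10b and Wnt6 with Wnt10a, 1 gene had a promoter peak in both lists and the other in neither. No windows of 2 listed members overlapped.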
